A study of Mus musculus with 6 samples.

Results

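The genes described here are 37 antioxidant, glutathione, thioredoxin, peroxiredoxin and iron storage genes, chosen by symbol as members of the NRF2 pathway and its partners. The rule uses no measured value, but the genes were chosen with earlier results of these data known. They were looked up among the 38887 Ensembl gene identifiers of a count table from mouse bone marrow (BM) neutrophils. All 37 had enough counts to be tested, among 12259 genes in all. NRF2, the product of Nfe2l2, is a transcription factor that KEAP1 holds back and marks for breakdown in resting cells. Under oxidative stress it escapes, pairs with small MAF proteins such as MAFG and binds antioxidant response elements, sites that the repressor BACH1 also occupies. Its known targets make glutathione, reduce peroxides through the glutathione and thioredoxin systems, detoxify quinones and store iron. Neutrophils produce superoxide in bulk through the NADPH oxidase, so these systems also act on oxidants that the cell makes itself.

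RNA came from Ly6G+ cells taken with magnetic beads from the BM of naive mice, mice bearing LL2 tumors for 1 week and mice bearing them for 3 weeks, with 2 libraries in each of the 3 groups. A figure legend of the study gives 3 samples a group for RNA-seq, whereas the count table holds 2. LL2 is a Lewis lung carcinoma line of C57BL/6 origin. The cells carried luciferase and were injected into a vein, which seeds tumors in the lung, and naive mice served as the controls without tumor. The study bought C57BL/6 mice aged 6 to 8 weeks, but its methods do not tie an age or sex to these libraries, and no transgene or deletion is given for them. The labels number the libraries of a group as replicate mice without giving litters or days, so the p-values measure the spread between these libraries.

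Libraries held 11994158 to 14127919 counts, and the 37 genes together took 0.855% to 1.00% of them. A level is given as CPM, the usual unit of counts relative to the library total, here after scaling by the TMM method. In these libraries 3 counts corresponded to between 0.200 and 0.246 CPM, a limit that covers counting error only. Changes were tested by edgeR's quasi-likelihood test over all tested genes, with Benjamini-Hochberg adjustment, and a gene was called changed at an adjusted p under 0.05. Errors of log2 fold changes are standard errors (SE) of that model. The abundant neutrophil transcripts S100a8 and S100a9 were at 147300 to 228700 CPM and 62950 to 80430 CPM, but Ly6g itself, the gene of the selection marker, was at only 0.491 to 2.14 CPM. Among markers of other cells, 12 erythroid genes summed to between 1245 and 1554 CPM in 5 libraries and to 603 CPM in three-week LL2 replicate 2. The 11 monocyte and macrophage genes summed to between 1506 and 1926 CPM, more than the erythroid genes in every library. The sum of 7 B lineage genes ran from 40.1 to 77.0 CPM in naive and one-week LL2 libraries and was 19.1 and 8.15 CPM in three-week LL2 libraries. In bulk RNA, fewer cells of a type and less RNA per cell cannot be told apart.

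In one-week LL2 mice, 3 of the 37 genes differed from naive mice (8.11%), Txn1 and Glrx3 being higher and Bach1 lower, while 7.99% of all tested genes differed in the same comparison. In three-week LL2 mice, 13 of 37 differed from naive mice (35.1%), 8 higher and 5 lower, against 21.4% of all genes. When three-week were set against one-week LL2 mice, 12 of 37 differed (32.4%), 6 in each direction, against 22.5% of all genes. Higher calls made up 4.23%, 12% and 12.9% of all genes in these comparisons, and lower calls 3.76%, 9.42% and 9.57%. The median log2 fold change of the 37 genes lay near 0 each time, at 0.00, -0.05 and -0.05, where the median over all genes was 0.01, 0.03 and -0.02. The set as a whole thus did not move in 1 direction, and its called members were divided between higher and lower. The comparisons share libraries, so their counts are not independent. At an unadjusted p under 0.05 the members counted 13, 17 and 19, and all genes 2849, 4146 and 4302 of 12259.

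The one-week count rested on single libraries. It was 0 without naive replicate 1 and 0 without one-week LL2 replicate 1, at 7 members each with an unadjusted p under 0.05, and 1 without one-week LL2 replicate 2. It was 4 without naive replicate 2 and 5 without either three-week LL2 library. The three-week count against naive was 8 without naive replicate 1, and 10, with 7 higher and 3 lower, without the library poor in erythroid transcripts. Scaling by library size alone gave 10 members at 3 weeks against naive, 5 in each direction, and 18 against 1 week, 6 higher and 12 lower, and under that scaling the median of all genes shifted to -0.11 and -0.23. Of all genes called, 52.9%, 56.0% and 57.5% were higher in the 3 comparisons, and 68.6%, 34.7% and 28.6% under that scaling.

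**Figure D1:**
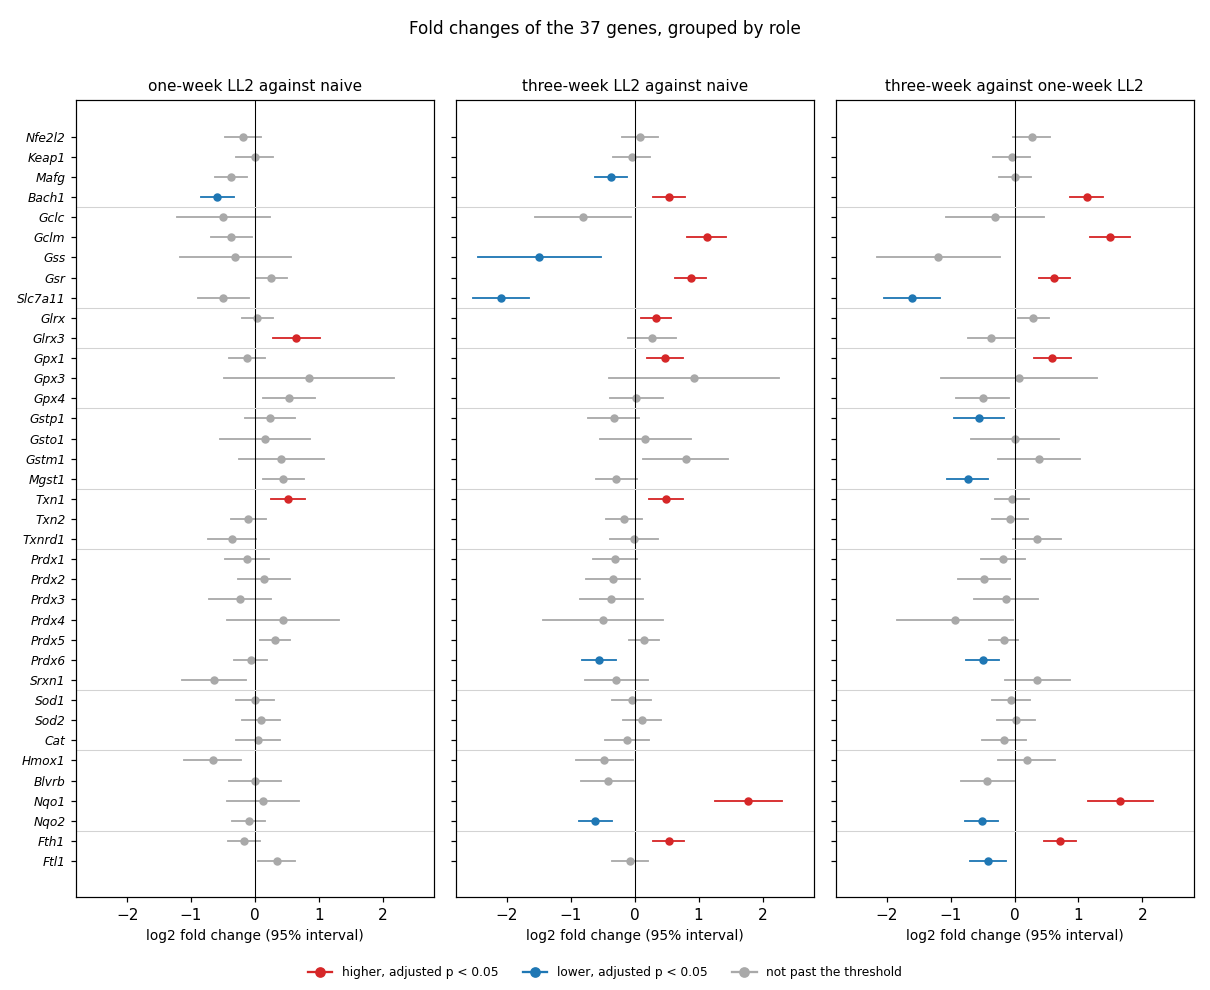
Log2 fold changes of the 37 genes (points) with 95% intervals of the edgeR model (lines) in the 3 comparisons, one row a gene, with grey lines between functional groups. Red marks genes called higher and blue genes called lower, of which there are 3, 13 and 12 from left to right; grey genes did not pass the threshold.

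Of the 37 genes, 17 were called in at least 1 comparison, 7 of them in 1, 9 in 2 and Bach1 in all 3. In none of these 28 calls did the libraries of the groups compared overlap. Such separation is common with 2 libraries a group, and was seen for 53.2%, 59.6% and 63.8% of all tested genes. The other 20 genes were called in none. Calls over the 3 comparisons together were not counted for all tested genes, so these numbers have no background share.

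The clearest difference among the regulators was in Bach1, the heme-sensitive repressor of antioxidant response elements (ENSMUSG00000025612, chromosome 16, 87698945 to 87733346). Bach1 was at 65.1 and 60.3 CPM in naive libraries, 41.6 and 41.5 CPM in one-week LL2 libraries and 87.8 and 93.6 CPM in three-week LL2 libraries. The groups did not overlap, and the level was lowest at 1 week and highest at 3 weeks. Against naive mice the log2 fold change was -0.59 ± 0.12 at 1 week (adjusted p = 0.0107) and 0.53 ± 0.12 at 3 weeks (adjusted p = 0.00595). From 1 to 3 weeks Bach1 rose 2.18-fold, a log2 fold change of 1.13 ± 0.12 (adjusted p = 2.81e-05). The one-week call was lost without naive replicate 1 (adjusted p = 0.0979), one-week LL2 replicate 1 (0.0765) or one-week LL2 replicate 2 (0.0810), while the log2 value remained between -0.60 and -0.54.

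Mafg, the small MAF partner of NRF2, was at 321 and 316 CPM in naive, 253 and 237 CPM in one-week LL2 and 264 and 227 CPM in three-week LL2 libraries. Both tumor-bearing groups lay below naive, and only the three-week difference passed the threshold, at a log2 fold change of -0.38 ± 0.12 (adjusted p = 0.0334), against -0.38 ± 0.12 at 1 week (adjusted p = 0.0615). The difference between these times was 0.00 ± 0.12. The three-week call was lost without naive replicate 1 (adjusted p = 0.0965), naive replicate 2 (0.0890) or three-week LL2 replicate 2 (0.246), whereas the one-week difference passed under 6 of 15 other settings, with both DESeq2 fits, with no filter, with edgeR on the 4 libraries compared and without either three-week library. Mafg shares 124 bases of exon with its neighbor Sirt7. Nfe2l2 itself ranged from 81.4 to 111 CPM and Keap1 from 54.9 to 67.1 CPM, with libraries of both tumor-bearing groups overlapping those of naive mice. Nfe2l2 was at 95.0 and 81.4 CPM in one-week LL2 libraries, below the three-week values of 111 and 102 CPM, and that difference of 0.27 ± 0.13 (95% interval -0.02 to 0.55) did not pass the threshold (adjusted p = 0.166). The 95% intervals of Nfe2l2 were -0.47 to 0.10 at 1 week and -0.20 to 0.37 at 3 weeks against naive, and those of Keap1 were -0.29 to 0.28 and -0.34 to 0.24. NRF2 is mainly controlled through its protein, which was not measured.

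Sites of the kind NRF2 and BACH1 bind were looked for in the promoters of the 37 genes as letters only, since both regulators act there. The core TGACNNNGC was searched on both strands in the 250 bases before each transcription start of RefSeq on GRCm38.p6. Promoters of 33 of the genes were found there, and Gclc, Gsr, Hmox1 and Prdx6 were not looked at. The core was present for 7 of the 33 (21.2%) and for 3112 of 27025 genes in all (11.5%). It was present for 3 of 15 genes called in some comparison, Gclm, Mgst1 and Mafg, and for 4 of 18 called in none, Nfe2l2, Prdx1, Txnrd1 and Sod1. The windows of the called genes are shown with that of Prdx1, which passed no threshold, to set the sites beside genes that rose, fell or gave no call. Each is written 5′ to 3′ in the direction of its gene, with the core in capitals, which in all 4 reads as the reverse complement GCNNNGTCA.
Gclm, chr3:122245411-122245443, plus strand: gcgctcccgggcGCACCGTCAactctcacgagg
Mgst1, chr6:138140459-138140491, plus strand: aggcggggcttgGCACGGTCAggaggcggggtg
Mafg, chr11:120633749-120633781, minus strand: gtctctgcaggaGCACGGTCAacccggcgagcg
Prdx1, chr4:116685454-116685486, plus strand: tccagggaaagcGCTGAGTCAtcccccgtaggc
In Gclm the core lies 134 to 126 bases before the start, in Mgst1 56 to 48, in Mafg 222 to 214 and in Prdx1 133 to 125. These starts are those of RefSeq. The one used for Mgst1 lies inside the gene bounds given below from another annotation, and so does its window. A match describes the letters and no binding was measured. A core further away, such as an enhancer would hold, was outside the search.

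Among the genes that make and recycle glutathione, 4 of 5 differed from naive mice at 3 weeks (21.4% of all genes did), 2 higher and 2 lower, and none passed the threshold at 1 week, although 3 had an unadjusted p under 0.05. Gclm, the modifier subunit of glutamate-cysteine ligase, the enzyme that sets the pace of glutathione synthesis (ENSMUSG00000028124, chromosome 3, 122245557 to 122270732), was at 25.0 and 25.5 CPM in naive, 18.8 and 20.4 CPM in one-week LL2 and 61.1 and 49.1 CPM in three-week LL2 libraries. It was highest in both three-week libraries and lowest in both one-week libraries. Gclm rose 2.18-fold at 3 weeks against naive mice, or 1.12 ± 0.14 on the log2 scale (adjusted p = 0.000131), and 2.81-fold against 1 week, 1.49 ± 0.14 (adjusted p = 1.42e-05). An annotated Gclm transcript shares 244 to 297 bases at 98% identity or more with Ppia and several of its processed copies, of which Gm10123 varied from 13 to 2565 counts. Gm10123 was lowest in three-week LL2 replicate 1, at 13 counts. Ppia had 3996 and 2299 counts in naive, 2101 and 3495 counts in one-week LL2 and 4097 and 4060 counts in three-week LL2 libraries. It was thus highest in both three-week libraries, as Gclm was, and far above the 273 to 788 counts of Gclm. The part of Ppia and its copies in the Gclm values was not tested.

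Gclc, the catalytic subunit of the same ligase, had far fewer reads, at 6.49 and 3.36 CPM in naive, 3.27 and 3.73 CPM in one-week LL2 and 2.72 and 2.92 CPM in three-week LL2 libraries. Its log2 fold change at 3 weeks was -0.80 ± 0.35 (95% interval -1.56 to -0.05, adjusted p = 0.122), which did not pass the threshold. The ratio of Gclm to Gclc CPM, taken after the values were seen and described without a test, was 3.85 and 7.61 in naive libraries, 5.76 and 5.46 in one-week LL2 libraries and 22.5 and 16.8 in three-week LL2 libraries.

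Gsr, glutathione reductase, which restores oxidized glutathione at the cost of NADPH (ENSMUSG00000031584, chromosome 8, 33652523 to 33698163), was at 703 and 774 CPM in naive, 930 and 833 CPM in one-week LL2 and 1349 and 1360 CPM in three-week LL2 libraries. The 3 groups followed each other without overlap. Its log2 fold change was 0.26 ± 0.11 at 1 week, which did not pass the threshold (adjusted p = 0.188), and 0.88 ± 0.11 at 3 weeks (adjusted p = 0.000151). From 1 to 3 weeks it rose by 0.62 ± 0.11 (adjusted p = 0.00155).

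Slc7a11, the cystine and glutamate exchanger that brings in the cysteine for glutathione (ENSMUSG00000027737, chromosome 3, 49892526 to 50443614), had the largest decrease of the 37 genes. Slc7a11 was at 34.3 and 27.3 CPM in naive, 25.1 and 18.6 CPM in one-week LL2 and 6.36 and 8.08 CPM in three-week LL2 libraries. At 3 weeks it was 4.26-fold lower than in naive mice, or -2.09 ± 0.20 on the log2 scale (adjusted p = 1.42e-05), and 3.03-fold lower than at 1 week, -1.60 ± 0.20 (adjusted p = 0.000116). The change at 1 week, -0.49 ± 0.18, did not pass the threshold (adjusted p = 0.116).

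Gss, glutathione synthetase, was near the limit of the depth, with 29 and 39 counts in naive, 34 and 29 counts in one-week LL2 and 16 and 9 counts in three-week LL2 libraries. Both three-week libraries were lowest, and the log2 fold change against naive mice was -1.50 ± 0.45 (adjusted p = 0.0297). The call was lost without naive replicate 1 (adjusted p = 0.0558), naive replicate 2 (0.163) or three-week LL2 replicate 2 (0.184), and with DESeq2 on all libraries (0.0603) or on the 4 compared (0.0945). Gss shares 165 bases with its neighbor Acss2, which had 39 to 64 counts. At 3 weeks glutathione reductase and the modifier subunit were thus higher, while the cystine exchanger and glutathione synthetase were lower.

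**Figure D2:**
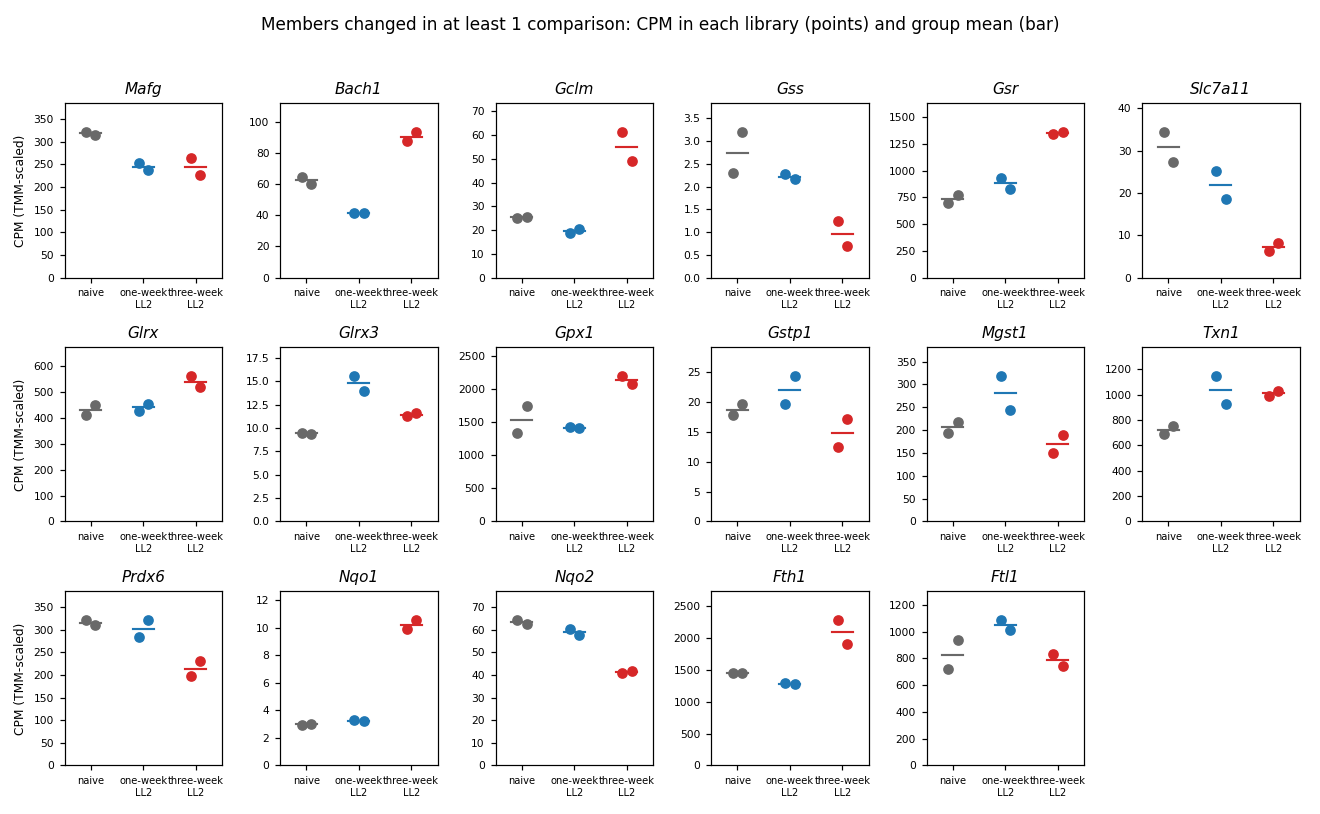
CPM of the 17 genes called in at least 1 comparison, one panel a gene with its own axis from 0, in naive (grey), one-week LL2 (blue) and three-week LL2 (red) mice. Points are libraries and bars the means of 2; Slc7a11 lies at 6.36 and 8.08 CPM at 3 weeks against 27.3 and 34.3 CPM in naive libraries, and Nqo1 at 9.93 and 10.5 CPM against 2.93 and 3.03 CPM.

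Each of the 2 glutaredoxin genes passed the threshold once, Glrx3 at 1 week and Glrx at 3 weeks, both against naive mice. In these comparisons 7.99% and 21.4% of all genes were called. Glrx3, a glutaredoxin of iron-sulfur cluster handling, was at 9.50 and 9.41 CPM in naive, 15.6 and 14.0 CPM in one-week LL2 and 11.3 and 11.6 CPM in three-week LL2 libraries. It was highest at 1 week, above naive by 0.65 ± 0.17 on the log2 scale (adjusted p = 0.0344), and the three-week value of 0.27 ± 0.17 did not pass (adjusted p = 0.295). The call was lost without naive replicate 1 (adjusted p = 0.174), naive replicate 2 (0.109), one-week LL2 replicate 1 (0.193) or one-week LL2 replicate 2 (0.0946), and with DESeq2 on all libraries (0.110) or on the 4 compared (0.112). Glrx, which uses glutathione to reduce protein disulfides, was at 410 and 449 CPM in naive and 429 and 453 CPM in one-week LL2 libraries. In three-week LL2 libraries it was at 561 and 520 CPM. Its log2 fold change of 0.33 ± 0.11 at 3 weeks lay at the threshold (adjusted p = 0.0491) and passed under 2 of 15 other settings of the processing, with adjusted p-values from 0.0467 to 0.275, and it was lost without any 1 of the 6 libraries.

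Of the glutathione peroxidases, Gpx1, the main cytosolic enzyme for hydrogen peroxide (ENSMUSG00000063856, chromosome 9, 108338903 to 108340343), was at 1333 and 1756 CPM in naive, 1425 and 1417 CPM in one-week LL2 and 2199 and 2088 CPM in three-week LL2 libraries. Both three-week libraries lay above all others, while the one-week values lay within the naive range. The log2 fold change at 3 weeks was 0.47 ± 0.13 against naive mice (adjusted p = 0.0206) and 0.59 ± 0.13 against 1 week (adjusted p = 0.00566). The first of these was lost without naive replicate 1, where the log2 value was 0.26 (adjusted p = 0.195), without one-week LL2 replicate 1 (0.0508) or three-week LL2 replicate 1 (0.0651), and with scaling by library size (0.0578) or edgeR on the 4 libraries compared (0.0642). The second was lost without one-week LL2 replicate 1 (0.0560) or one-week LL2 replicate 2 (0.0573).

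Gpx4, which reduces lipid hydroperoxides in membranes, was at 48.6 and 74.3 CPM in naive, 90.9 and 86.3 CPM in one-week LL2 and 73.1 and 52.1 CPM in three-week LL2 libraries. Both one-week libraries were the highest, but neither the difference from naive, 0.53 ± 0.19 (adjusted p = 0.106), nor that of 3 weeks against 1 week, -0.50 ± 0.19 (adjusted p = 0.0749), passed the threshold. The latter passed under 8 of 15 other settings, among them scaling by library size, both other filters and the fits without naive replicate 1, naive replicate 2 or three-week LL2 replicate 1, and the one-week difference under 2, no filter and the fit without naive replicate 2. Gpx3, the secreted enzyme, was at 0.396 to 1.15 CPM, too low for its interval of -0.41 to 2.26 at 3 weeks to show a change in either direction.

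The glutathione transferases, which join glutathione to reactive compounds, gave 2 calls among 4 genes, both lower at 3 weeks than at 1 week. In that comparison 22.5% of all genes were called, 9.57% as lower. None of the 4 was called against naive mice, where 7.99% of all genes were at 1 week and 21.4% at 3 weeks. Mgst1, the microsomal enzyme (ENSMUSG00000008540, chromosome 6, 138140316 to 138156755), was at 195 and 218 CPM in naive, 318 and 244 CPM in one-week LL2 and 150 and 189 CPM in three-week LL2 libraries. One-week libraries lay above and three-week libraries below the naive pair, and neither difference from naive passed (0.45 ± 0.15 with adjusted p = 0.0851 and -0.29 ± 0.15 with adjusted p = 0.195). The one-week difference passed under 3 of 15 other settings, both other filters and DESeq2 on the 4 libraries compared. The direct comparison of the times gave a log2 fold change of -0.73 ± 0.15 (adjusted p = 0.00336). Gstp1 was at 17.7 and 19.6 CPM in naive, 19.6 and 24.2 CPM in one-week LL2 and 12.5 and 17.2 CPM in three-week LL2 libraries, and fell by 0.56 ± 0.18 on the log2 scale from 1 to 3 weeks (adjusted p = 0.0417). That call was lost without naive replicate 2 (adjusted p = 0.0616), one-week LL2 replicate 2 (0.243), where the log2 value was -0.43, or three-week LL2 replicate 1 (0.306), where it was -0.34, and with DESeq2 on all libraries (0.0690), DESeq2 on the 4 compared (0.0929) or edgeR on those 4 (0.0549). Gsto1 ranged from 2.62 to 4.59 CPM and Gstm1 from 3.44 to 8.92 CPM, with the highest Gstm1 value in three-week LL2 replicate 2.

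In the thioredoxin system, Txn1, the cytosolic thioredoxin (ENSMUSG00000028367, chromosome 4, 57943373 to 57956411), was higher than in naive mice at both times. Txn1 was at 689 and 752 CPM in naive, 1145 and 928 CPM in one-week LL2 and 993 and 1028 CPM in three-week LL2 libraries. All 4 libraries of tumor-bearing mice lay above both naive libraries. The log2 fold change was 0.52 ± 0.12 at 1 week (adjusted p = 0.0211) and 0.49 ± 0.12 at 3 weeks (adjusted p = 0.0131), and the times differed by -0.04 ± 0.12 (95% interval -0.30 to 0.23). Without naive replicate 1 both calls were lost (adjusted p = 0.167 and 0.116), and without one-week LL2 replicate 1 the one-week call (0.240). Scaling by library size ended the three-week call (0.0611). Txnrd1, the reductase that recharges thioredoxin, did not pass a threshold, at 14.3 to 22.9 CPM, with an interval of -0.38 to 0.37 at 3 weeks, nor did the mitochondrial Txn2, at 98.1 to 130 CPM, with an interval of -0.46 to 0.11.

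Of the 7 peroxiredoxin genes, including sulfiredoxin, 0 were called at 1 week, when 7.99% of all genes were. At 3 weeks 1 was called (14.3%), both against naive mice and against 1 week, where 21.4% and 22.5% of all genes were. Prdx6, a peroxiredoxin that draws on glutathione and also has phospholipase activity (ENSMUSG00000026701, chromosome 1, 161240112 to 161251219), was at 321 and 310 CPM in naive, 283 and 321 CPM in one-week LL2 and 198 and 231 CPM in three-week LL2 libraries. Both three-week libraries lay below the other 4. The log2 fold change was -0.56 ± 0.12 against naive mice (adjusted p = 0.00518) and -0.49 ± 0.12 against 1 week (adjusted p = 0.00991). The first was lost without three-week LL2 replicate 1 (0.0599) and the second without three-week LL2 replicate 1 (0.108) or one-week LL2 replicate 2 (0.0937). Prdx5 was the most abundant of the family, at 891 and 971 CPM in naive, 1164 and 1154 CPM in one-week LL2 and 1004 and 1054 CPM in three-week LL2 libraries. Its highest libraries were those of one-week mice, and the log2 fold change of 0.32 ± 0.11 did not pass (adjusted p = 0.0918). The mitochondrial Prdx3 ranged from 5.82 to 8.78 CPM, the endoplasmic reticulum enzyme Prdx4 from 1.15 to 2.31 CPM, and Srxn1, the sulfiredoxin that rescues overoxidized peroxiredoxins, from 4.55 to 8.27 CPM.

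Prdx1 and Prdx2 stood apart in 1 library. Prdx1 was at 111 to 128 CPM in 5 libraries and at 81.9 CPM in three-week LL2 replicate 2, and Prdx2, which is abundant in red cells, at 39.1 to 48.2 CPM and 25.0 CPM. Prdx2 shares 176 bases with Junb, which had 5298 to 9344 counts, the most in three-week LL2 replicate 2. The part of Junb reads in the Prdx2 values was not tested. Sod1, Cat and Blvrb, which red cells also hold, were lowest in the same library, at 137, 16.5 and 17.0 CPM, against 157 to 184, 20.1 to 21.6 and 25.1 to 32.0 CPM in the others. That library was the lowest of the 6 for 10 of the 37 genes (27.0%) and for 16.1% of all genes. Naive replicate 1 was the lowest for 10 genes as well (19.9% of all genes) and the highest for 11 (29.7%, against 18.2% of all genes). The summed erythroid markers of three-week LL2 replicate 2 were the low value given above, with Hba-a1 at 48.1 CPM against 115 to 159 CPM elsewhere. In a fit without three-week LL2 replicate 1, which left this library alone in its group, Gstm1, Prdx1, Prdx2, Hmox1 and Blvrb joined the calls at 3 weeks against naive, and the count was 15. The part of RNA from red cells or from these other cells in the values was not tested.

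**Figure D3:**
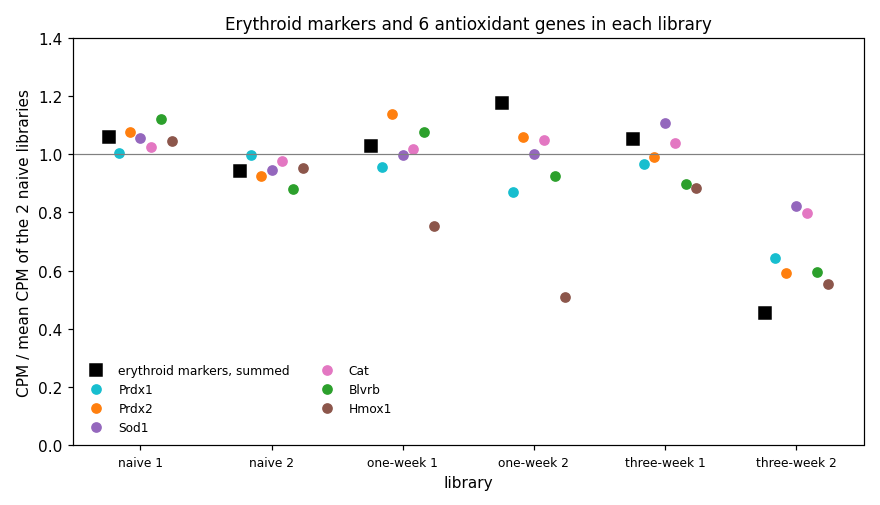
CPM in each library divided by the mean of the 2 naive libraries, for 12 erythroid markers summed (black squares) and 6 antioxidant genes (circles). In three-week LL2 replicate 2 the erythroid sum is 603 CPM, against 1245 to 1554 CPM in the other 5, and Prdx1, Prdx2, Sod1, Cat and Blvrb also have their lowest values there, while Hmox1 is lowest in one-week LL2 replicate 2, at 32.4 CPM.

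Superoxide dismutases and catalase, which remove superoxide and hydrogen peroxide, gave no call in any comparison by edgeR, and none of the 3 genes had an unadjusted p under 0.05. Of all genes 7.99%, 21.4% and 22.5% were called in the 3 comparisons, so a lack of calls among 3 genes says little. Sod1, the cytosolic enzyme, ranged from 137 to 184 CPM, Sod2, the mitochondrial one, from 31 to 38.8 CPM and Cat from 16.5 to 21.6 CPM, with libraries of all groups overlapping. The 95% intervals at 3 weeks against naive were -0.35 to 0.25 for Sod1, -0.19 to 0.41 for Sod2 and -0.47 to 0.22 for Cat. Sod2 shares 3110 bases with Rps6ka2, which had 1465 to 1981 counts, so its level is uncertain.

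The largest increase among the 37 genes was in Nqo1, a quinone reductase often used as a readout of NRF2 activity (ENSMUSG00000003849, chromosome 8, 107388225 to 107403206). Nqo1 was at 2.93 and 3.03 CPM in naive, 3.27 and 3.21 CPM in one-week LL2 and 9.93 and 10.5 CPM in three-week LL2 libraries. Naive and one-week values lay close together, well below both three-week libraries. The log2 fold change at 3 weeks was 1.78 ± 0.24 against naive mice (adjusted p = 0.000236), a 3.43-fold rise, and 1.66 ± 0.24 against 1 week (adjusted p = 0.000280). At 1 week it was 0.12 ± 0.26, with a 95% interval of -0.44 to 0.69.

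Its paralog Nqo2 went the other way. Nqo2, which uses another electron donor (ENSMUSG00000046949, chromosome 13, 33964687 to 33988443), was at 64.1 and 62.5 CPM in naive, 60.5 and 57.6 CPM in one-week LL2 and 40.7 and 41.8 CPM in three-week LL2 libraries. The log2 fold change was -0.62 ± 0.12 against naive mice (adjusted p = 0.00247) and -0.52 ± 0.12 against 1 week (adjusted p = 0.00713), the latter lost without three-week LL2 replicate 1 (0.0571). Nqo2 shares 764 bases with Serpinb6a, and since the strand of the reads is not stated, reads of the overlap cannot be told apart. Serpinb6a itself had 547 to 733 counts, with the lowest and the highest in three-week and one-week LL2 libraries. The ratio of Nqo1 to Nqo2, described after its values were seen, was 0.0457 and 0.0485 in naive, 0.0541 and 0.0557 in one-week LL2 and 0.244 and 0.252 in three-week LL2 libraries.

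Hmox1, heme oxygenase, which breaks down heme and is a target of both NRF2 and BACH1, was at 66.8 and 60.8 CPM in naive, 48.0 and 32.4 CPM in one-week LL2 and 56.5 and 35.5 CPM in three-week LL2 libraries. Both groups of tumor-bearing mice lay below naive mice and spread widely, and neither the log2 value of -0.66 ± 0.21 at 1 week (adjusted p = 0.0682) nor that of -0.47 ± 0.21 at 3 weeks (adjusted p = 0.126) passed. Under other settings the one-week difference passed in 8 of 15, among them both other filters, both DESeq2 fits and the fits without either three-week library, and the three-week difference in 3 of 15, with no filter, with the replicate number as a block and without three-week LL2 replicate 1. Blvrb, biliverdin reductase B, was lower by -0.42 ± 0.19 on the log2 scale at 3 weeks (adjusted p = 0.141), which did not pass.

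The ferritin genes, whose shells store iron, differed in the direction of their change from 1 to 3 weeks. Fth1, the heavy chain, which oxidizes iron for storage (ENSMUSG00000024661, chromosome 19, 9980598 to 9985098), was at 1444 and 1456 CPM in naive, 1290 and 1275 CPM in one-week LL2 and 2276 and 1907 CPM in three-week LL2 libraries. Three-week libraries were the highest and one-week libraries the lowest. Fth1 rose by 0.53 ± 0.12 on the log2 scale against naive mice (adjusted p = 0.00568) and by 0.71 ± 0.12 against 1 week (adjusted p = 0.000772). Ftl1, the light chain (ENSMUSG00000050708, chromosome 7, 45457944 to 45459884), was at 724 and 933 CPM in naive, 1084 and 1012 CPM in one-week LL2 and 834 and 742 CPM in three-week LL2 libraries.

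Ftl1 at 3 weeks lay within the naive range, at a log2 fold change of -0.07 ± 0.13, and below 1 week by -0.41 ± 0.13 (adjusted p = 0.0393). That call was lost without one-week LL2 replicate 1 (adjusted p = 0.165), one-week LL2 replicate 2 (0.0853), three-week LL2 replicate 1 (0.0535) or three-week LL2 replicate 2 (0.197). The pseudogene Ftl1-ps1, which is nearly identical to Ftl1, had 0 to 13 counts, and adding the counts of such pseudogenes to Ftl1 changed no call. The ratio of Fth1 to Ftl1, again described after its values were seen, was 2.00 and 1.56 in naive, 1.19 and 1.26 in one-week LL2 and 2.73 and 2.57 in three-week LL2 libraries.

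**Figure D4:**
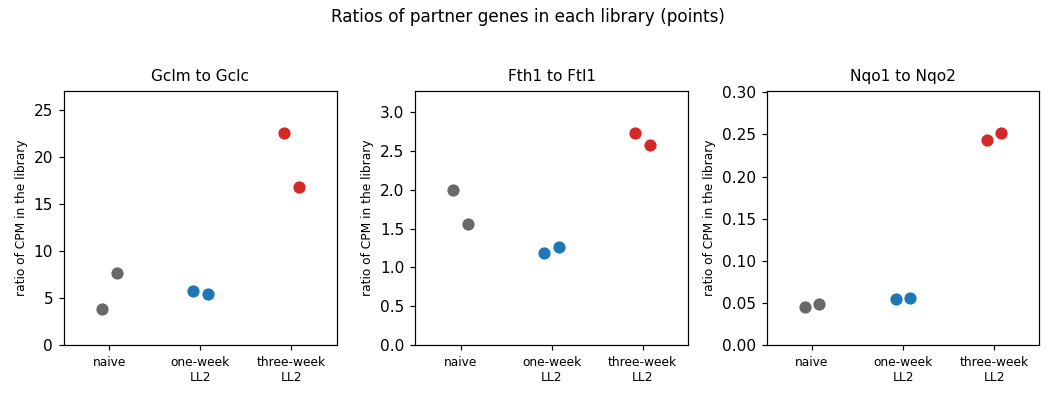
Ratio of the CPM of partner genes in each library (points), for Gclm to Gclc, Fth1 to Ftl1 and Nqo1 to Nqo2, 3 of the 5 ratios taken, with axes from 0. Three-week LL2 libraries (red) are the highest in all 3 panels, at 22.5 and 16.8, 2.73 and 2.57, and 0.244 and 0.252. The pairs were picked after their values were seen and carry no test.

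The other ratios taken were those of Txn1 to Txnrd1 and Bach1 to Nfe2l2. Txn1 to Txnrd1 was 30.1 and 44.8 in naive, 69.2 and 65.1 in one-week LL2 and 49.6 and 52.9 in three-week LL2 libraries, so that one-week libraries were the highest. Bach1 to Nfe2l2 was 0.717 and 0.549 in naive, 0.438 and 0.511 in one-week LL2 and 0.795 and 0.917 in three-week LL2 libraries.

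The position of both libraries of a group against the 2 naive libraries gives the pattern of all 37 genes over time. For 7 genes the libraries lay above the naive range at both times, for 7 below it at both times, and for 9 they overlapped it at both. Bach1, Gclm and Fth1 lay below naive at 1 week and above it at 3 weeks, while Mgst1 and Prdx4 did the reverse. The remaining genes left the naive range at only 1 time. Library separation of this kind is a description, since 53.2% of all genes separated from naive mice at 1 week and 59.6% at 3 weeks. The patterns over both times were not counted for all genes.

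**Figure D5:**
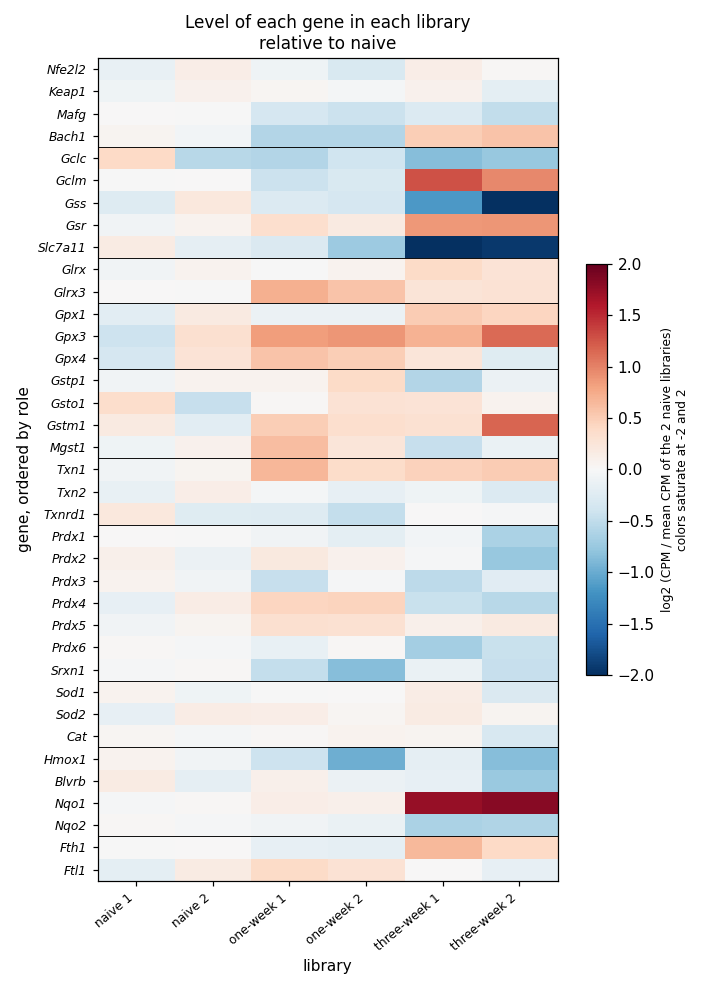
Log2 of the CPM in each library over the mean of the 2 naive libraries, with genes in rows ordered by role, lines between roles and libraries in columns; colors saturate at -2 and 2. Nqo1 and Gclm are red and Slc7a11 and Gss blue in both three-week LL2 libraries, and Bach1 is blue in both one-week and red in both three-week libraries.

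Levels of different genes were compared per length, as mean CPM per kilobase of annotated exon, merged over all transcripts of a gene. A gene whose RNA here uses only part of those exons is given too low a value, so the order is approximate. In naive mice Gpx1 was highest at 1072, followed by Txn1 at 686, Ftl1 at 618, Prdx5 at 435, Fth1 at 418 and Gsr at 268, and Gpx3 was lowest at 0.290. The spread of the naive libraries covered the gaps between Txn1 and Ftl1 and between Prdx5 and Fth1. In three-week LL2 mice the same 6 genes led, with Gpx1 at 1487, Txn1 at 962, Fth1 at 603, Ftl1 at 588, Gsr at 492 and Prdx5 at 481. Gss, at 0.163, and Slc7a11, at 0.518, were then the lowest. Summed CPM of the 5 glutathione synthesis and recycling genes was 771 and 833 in naive, 980 and 878 in one-week LL2 and 1420 in each three-week LL2 library, nearly all of it Gsr.

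Markers of neutrophil maturity moved in the same libraries. Of 11 neutrophil genes, Cxcr2 and Retnlg were higher and the granule protein genes Camp, Ltf and Ngp lower at 3 weeks than in naive mice. Of 7 precursor genes, the granule enzymes Mpo, Elane, Prtn3 and Ctsg and the precursor marker Ms4a3 were higher at 3 weeks, whereas the proliferation genes Mki67 and Top2a were lower. The summed precursor markers were 277 and 239 CPM in naive, 192 and 259 CPM in one-week LL2 and 343 and 449 CPM in three-week LL2 libraries. At 1 week, 4 of 8 tested eosinophil, basophil and mast cell markers were higher, with the sum of the list at 120 and 135 CPM against 89.5 and 85.2 CPM in naive libraries. At 3 weeks that sum was 74.4 and 60.1 CPM, with 3 markers lower than in naive mice and 5 lower and 1 higher than at 1 week. Of 4 megakaryocyte and platelet markers, 3 were lower at 3 weeks than in naive mice, with sums of 104 and 97.8 CPM in naive, 78.3 and 87.0 CPM in one-week LL2 and 56.5 and 67.7 CPM in three-week LL2 libraries. The 11 monocyte and macrophage genes summed to 1606 and 1582 CPM in naive and 1506 and 1572 CPM in one-week LL2 libraries. In three-week LL2 libraries they summed to 1926 and 1524 CPM. Cx3cr1 was lower at 3 weeks than in naive mice, and against 1 week Vcam1 and Mertk were higher and Cx3cr1 and Adgre1 lower. Of 4 epithelial or tumor genes, only Cdh1 could be tested, and it was higher at 3 weeks in both comparisons. Trac was at 0 in every library, and the T and NK list summed to at most 2.83 CPM. The part of these populations in the levels of the 37 genes was not tested.

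A wider list of 100 redox genes gave 77 that could be tested. Among these, 1 was called at 1 week (1.3%), 17 at 3 weeks against naive (22.1%), 9 higher and 8 lower, and 12 at 3 weeks against 1 week (15.6%), 8 higher and 4 lower. The shares of all genes were 7.99%, 21.4% and 22.5%, so that the first and last counts lay below the background and the second near it. Under scaling by library size the last 2 counts were 16, with 6 higher and 10 lower, and 17, with 6 higher and 11 lower. Without naive replicate 1, naive replicate 2 or three-week LL2 replicate 1 the count at 3 weeks against naive was 9, 11 and 11. Their median log2 fold changes were -0.01, 0.07 and 0.01. Those leading by adjusted p follow. Ggt1, a gamma-glutamyltransferase that cleaves extracellular glutathione, was at 5.54 and 7.78 CPM in naive, 4.41 and 5.89 CPM in one-week LL2 and 143 and 70.1 CPM in three-week LL2 libraries. Its three-week libraries differed widely from each other and still lay far above the rest, at a log2 fold change of 4.0 ± 0.30 against naive mice (adjusted p = 1.84e-06) and 4.38 ± 0.31 against 1 week (adjusted p = 9.24e-07).

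Cbr3, a carbonyl reductase, was at 1.50 and 2.37 CPM in naive, 1.47 and 0.820 CPM in one-week LL2 and 14.4 and 16.8 CPM in three-week LL2 libraries. Its log2 fold change at 3 weeks was 3.00 ± 0.29 against naive mice (adjusted p = 1.55e-05) and 3.74 ± 0.31 against 1 week (adjusted p = 3.66e-06). G6pdx, which opens the pentose phosphate pathway and supplies the NADPH that GSR uses, was at 131 and 174 CPM in naive, 171 and 180 CPM in one-week LL2 and 390 and 487 CPM in three-week LL2 libraries. Only the three-week libraries left the naive range by a wide margin, with log2 fold changes of 1.52 ± 0.15 (adjusted p = 1.58e-05) and 1.32 ± 0.15 against 1 week (adjusted p = 4.77e-05). Esd, an esterase that frees glutathione from its formaldehyde adduct, was at 47.6 and 51.2 CPM in naive, 47.5 and 56.5 CPM in one-week LL2 and 105 and 98.3 CPM in three-week LL2 libraries. It rose by 1.04 ± 0.13 on the log2 scale at 3 weeks against naive mice (adjusted p = 0.000105). Mgst2, a relative of Mgst1, was at 125 and 146 CPM in naive, 174 and 172 CPM in one-week LL2 and 72.1 and 89.8 CPM in three-week LL2 libraries. It fell by 1.1 ± 0.13 on the log2 scale from 1 to 3 weeks (adjusted p = 8.36e-05).

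The regulators Bach2 and Maff and the enzyme Ggct had larger log2 changes than G6pdx and are named after their values were seen. Bach2, a relative of Bach1 known from B cells, was at 10.6 and 7.86 CPM in naive and 9.68 and 8.80 CPM in one-week LL2 libraries. In three-week LL2 libraries, where the sum of the B lineage markers was also lowest, it was at 2.95 and 2.62 CPM. Its log2 fold change at 3 weeks was -1.73 ± 0.25 against naive mice (adjusted p = 0.000304), and the part of B cells in it was not tested. Maff, a small MAF, had 0.601 and 1.04 CPM in one-week LL2 and 2.79 and 3.31 CPM in three-week LL2 libraries, a difference of 1.89 ± 0.54 (adjusted p = 0.0229). Ggct, a gamma-glutamylcyclotransferase, had 2.93 and 4.34 CPM in naive and 1.09 and 1.38 CPM in three-week LL2 libraries, a difference of -1.55 ± 0.41 (adjusted p = 0.0178).

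At 1 week the only call in the wider list was Gpx5, a secreted glutathione peroxidase, at 0.396 and 0.737 CPM in naive and 1.87 and 3.73 CPM in one-week LL2 libraries, at a log2 fold change of 2.28 ± 0.54 (adjusted p = 0.0226). It was lost without naive replicate 1 (adjusted p = 0.193), naive replicate 2 (0.0561) or one-week LL2 replicate 2 (0.219). The next genes by p-value were Rbx1, a subunit of the ubiquitin ligase that KEAP1 serves, Dpep2, a membrane dipeptidase, and Slc40a1, the iron exporter ferroportin. Rbx1 was at 61.9 and 74.5 CPM in naive, 91.1 and 91.4 CPM in one-week LL2 and 99.4 and 90.4 CPM in three-week LL2 libraries. Dpep2 was at 10.1 and 13.2 CPM, 20.5 and 16.6 CPM and 19.1 and 13.2 CPM, and Slc40a1 at 235 and 212 CPM, 187 and 157 CPM and 245 and 244 CPM in the same order. At 1 week none of these 3 passed, although the libraries did not overlap those of naive mice, with log2 values of 0.42 ± 0.13, 0.67 ± 0.21 and -0.38 ± 0.12 (adjusted p = 0.0590, 0.0676 and 0.0725). They passed under 4, 5 and 3 of the other settings.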

How the data were processed

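RNA of Ly6G+ BM cells, selected to over 95% purity per the labels, was sequenced from single-end total RNA libraries. The authors deposited expected counts per gene, estimated by RSEM as whole numbers without scaling between libraries. The submitters' processing notes name Bowtie2, RSEM 1.2.31, DESeq2 and mm10, whereas the methods give an older RSEM, and the labels give reads of 75 bp where the methods give up to 50 bp. Library strand is not given in the sources used here. Read splitting by RSEM makes genes with shared exons or near-identical copies uncertain. Depth was 11994158 to 14127919 counts per library, all of which named a gene.

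Symbols, positions and exon lengths came from GENCODE M21 (GRCm38), which matched 37570 of 38887 identifiers, and promoters from RefSeq (GRCm38.p6). Genes were filtered by filterByExpr, scaled by TMM (factors 0.913 to 1.07) and tested with edgeR 4.0.16 (glmQLFit, R 4.3.3) in 1 model of the 6 libraries whose only term was the group. In place of the authors' DESeq2 test with a fold over 5, the threshold was an adjusted p under 0.05. The fit was tested on simulated data. Libraries of a group differed by more than sampling noise (chi-square per degree of freedom 8.84 to 11.8), so none was merged.

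All 37 members are accounted for. Members past the threshold are named with every library, as are the 4 other redox genes with the smallest adjusted p per comparison. The members and lists were chosen with earlier results of these data known. Alternatives were other scaling, filters, tests and samples, a block for the replicate number, pseudogene counts added, a fold over 5, and each library left out.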

Additional observations from a re-analysis of the deposited data

Results flagged for a closer look

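For 12 of the 37 genes the change from naive mice at 3 weeks differed from that at 1 week, by the direct test of the times in edgeR (Benjamini-Hochberg adjusted p under 0.05). The difference, three-week minus one-week log2 fold change against the same naive libraries, was positive for 6 genes. It was 1.66 for Nqo1, 1.49 for Gclm, 1.13 for Bach1, 0.706 for Fth1, 0.620 for Gsr and 0.593 for Gpx1. It was negative for the other 6, at -1.60 for Slc7a11, -0.733 for Mgst1, -0.561 for Gstp1, -0.516 for Nqo2, -0.495 for Prdx6 and -0.412 for Ftl1. Bach1, Gclm, Gpx1 and Fth1 had negative log2 values at 1 week (-0.59, -0.37, -0.12 and -0.18) and positive ones at 3 weeks (0.53, 1.12, 0.47 and 0.53), and of the one-week values only that of Bach1 passed the threshold. Mgst1, Gstp1 and Ftl1 had the opposite order (0.45, 0.23 and 0.34, then -0.29, -0.33 and -0.07), with none of these 6 values past it. Groups of 2 libraries were too small for a test of single outlying libraries.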

How the results depend on the processing

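No called value of a member, nor any value of the other redox genes named by p-value, changed direction under the alternatives run. Of member values that did not pass, 0 to 6 changed sign per alternative at 1 week, 0 to 5 at 3 weeks against naive and 0 to 7 against 1 week. Of the calls at 3 weeks, those of Bach1, Gclm, Gsr, Slc7a11, Nqo1 and Fth1 in both comparisons, Nqo2 against naive mice and Mgst1 against 1 week passed under all 15 alternatives that refitted them. The pseudogene counts added did not include Ppia and its copies, so none of these alternatives covered the bases they share with Gclm. The one-week count was the least stable. Instead of 3 members it was 8 with no filter on low counts, and 5 with at least 10 counts in every library, with DESeq2 on the 4 libraries compared or with edgeR on those 4. The other redox genes at 1 week, 1 in the results given, numbered 5 without the filter and 2 with scaling by library size, with at least 10 counts, with DESeq2 on all 6 or on 4 libraries and with edgeR on 4. Over all genes the one-week count was 1537 without the filter. Requiring also a fold over 5 left 0 members in every comparison, 0, 2 and 2 other redox genes and 92, 208 and 196 of all genes. With each library left out in turn, members numbered 0 to 5 at 1 week, 8 to 15 at 3 weeks against naive and 8 to 13 against 1 week, other redox genes 0 to 2, 9 to 16 and 8 to 11, and all genes 147 to 1145, 1362 to 2392 and 1502 to 2725. A group left with 1 library was assumed to vary like the others. With the replicate number as a block the members numbered 4, 13 and 14, the other redox genes 1, 16 and 12 and all genes 959, 2559 and 2709. Glrx lost its call (adjusted p = 0.0656), and Hmox1 at 1 week and at 3 weeks against naive and Prdx2 and Blvrb at 3 weeks against 1 week gained one. Same-numbered libraries did not deviate together (correlations 0.0101, 0.0364 and 0.0379), so the numbers were not used to pair mice. The causes of these shifts were not tested. With 2 libraries a group, changes of genes under about 10 counts are not detectable unless large, and levels such as those of Gpx3 are limited by depth.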
